A study of Homo sapiens with 12 samples.

Results

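The transcription factors that set the liver program, HNF4A, CEBPA, FOXA1, FOXA2, FOXA3, ONECUT1, NR5A2 and PROX1, were followed in HuH-7 hepatocellular carcinoma cells treated with SLMP53-2, a compound described as a reactivator of mutant p53. HuH-7 is an established human liver tumour line, and all groups carried the p53 change Y220C given in its genotype label. Cells received DMSO as solvent control, 28 µM SLMP53-2 (2 times the IC50) or 42 µM SLMP53-2 (3 times the IC50) for 24 h, with 4 biological replicates per group and 1 array per replicate. The higher dose is 42 µM in the sample titles and 48 µM in another label of the same arrays, and is called 42 µM here. The 8 genes are members of 29123 gene names on the array and were found as all gene probes whose name in the scanner files is one of the 8 symbols. These probes were 19 of the 41000 gene probes, and 18 of them were among the 33477 bright enough to be tested. Values are normalized log2 intensities, so that a difference of 1 is a doubling of the fluorescence, and levels of different probes are not set against each other.

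These factors form a network in hepatocytes. The FOXA proteins are forkhead pioneer factors that bind closed chromatin, HNF4A and NR5A2 are nuclear receptors that drive apolipoprotein, clotting factor and bile acid genes, C/EBPα is a leucine zipper factor of metabolic and acute phase genes, ONECUT1 is a cut-homeodomain factor of liver and biliary development, and PROX1 is a homeodomain protein that acts largely as a corepressor of nuclear receptors. They bind the regulatory regions of one another's genes, and loss of several of them is a known feature of dedifferentiated liver tumours.

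The labelled cell type was checked against marker genes. All 12 hepatocyte marker genes listed, among them ALB, AFP and TTR, were well above background on all 12 arrays, and 0 of the 12 passed the test below at either dose with all arrays. Of 22 markers of other cell types, 13 were also above background on all 12 arrays: 5 of 6 biliary (KRT19 and EPCAM among them), 2 of 5 endothelial (VWF and KDR), 2 of 6 mesenchymal and 4 of 5 leukocyte genes, such as LYZ and CD3D. The endothelial gene TEK was above background on none, and the leukocyte gene PTPRC on 3 of the 4 arrays at 28 µM and on none of the others. None of the 19 tested biliary, endothelial, mesenchymal or leukocyte markers passed, and their part in the results was not tested. In bulk RNA, fewer cells of a type and less RNA per cell cannot be told apart. Some arrays stood apart. Leaving out 28 µM replicate 4 raised the number of probes called at 28 µM, by the limits given next, from 0 to 718, whereas leaving out any other array left it at 0. Limma's array weights were lowest for 28 µM replicate 1 (0.31, against 0.68 for replicate 4 and 1.78 for the highest array). Leaving out replicate 4 moved the 28 µM log2 changes of the members by at most 0.14 and turned none in sign. Leaving out replicate 1 moved them by at most 0.22 and turned 2 of 18. Without replicate 2 they moved by at most 0.15 and 2 turned as well, and without replicate 3 by at most 0.10 and 0 turned.

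To be called changed, a probe had to differ by 0.6 or more on the log2 scale with a limma p below 0.05 after Benjamini-Hochberg adjustment. None of the 18 member probes was called at 42 µM, where 2.64% of all tested probes (885) were called. The 885 depended on single arrays and on the slide: 0 probes were called at 42 µM without DMSO replicate 2 or without 42 µM replicate 2, between 258 and 553 without DMSO replicate 1, 3 or 4 or 42 µM replicate 1 or 3, 1 with slide as a fixed block and 1116 with slide as a random block. None of the members was called at 28 µM, where the share of all probes was 0%, or between the doses, where it was also 0%. Without 28 µM replicate 4, 718 probes (2.14%) were called at 28 µM, and the members among them still numbered 0. Without regard to multiple testing or size, limma gave an unadjusted p below 0.05 for 3 member probes at 42 µM, all of them lower than on DMSO, beside 7.14% of all probes lower and 8.22% higher. They were both probes of FOXA1 and 1 of the 3 probes of CEBPA. At 28 µM 1 member probe, of FOXA1, was lower at an unadjusted p below 0.05, beside 5.58% of all probes, and 0 were between the doses, beside 2.45%. Both treated groups were compared with the same DMSO arrays, so the doses are not independent of each other.

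The estimates of the 18 probes ran from −0.35 to 0.24 at 28 µM and from −0.50 to 0.35 at 42 µM on the log2 scale. The 95% interval lay within 0.6 on either side of 0 for 14 probes at 28 µM and for 10 at 42 µM. For the other 8 probes at 42 µM a change of 0.6 lay inside the interval. With the brightest probe for each gene, 4 of the 8 factors were higher and 4 lower at 28 µM, with a median log2 change of 0.03, and 3 were higher and 5 lower at 42 µM, with a median of −0.03. Over the 24259 gene names tested the medians were −0.02 at both doses.

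**Figure D1:**
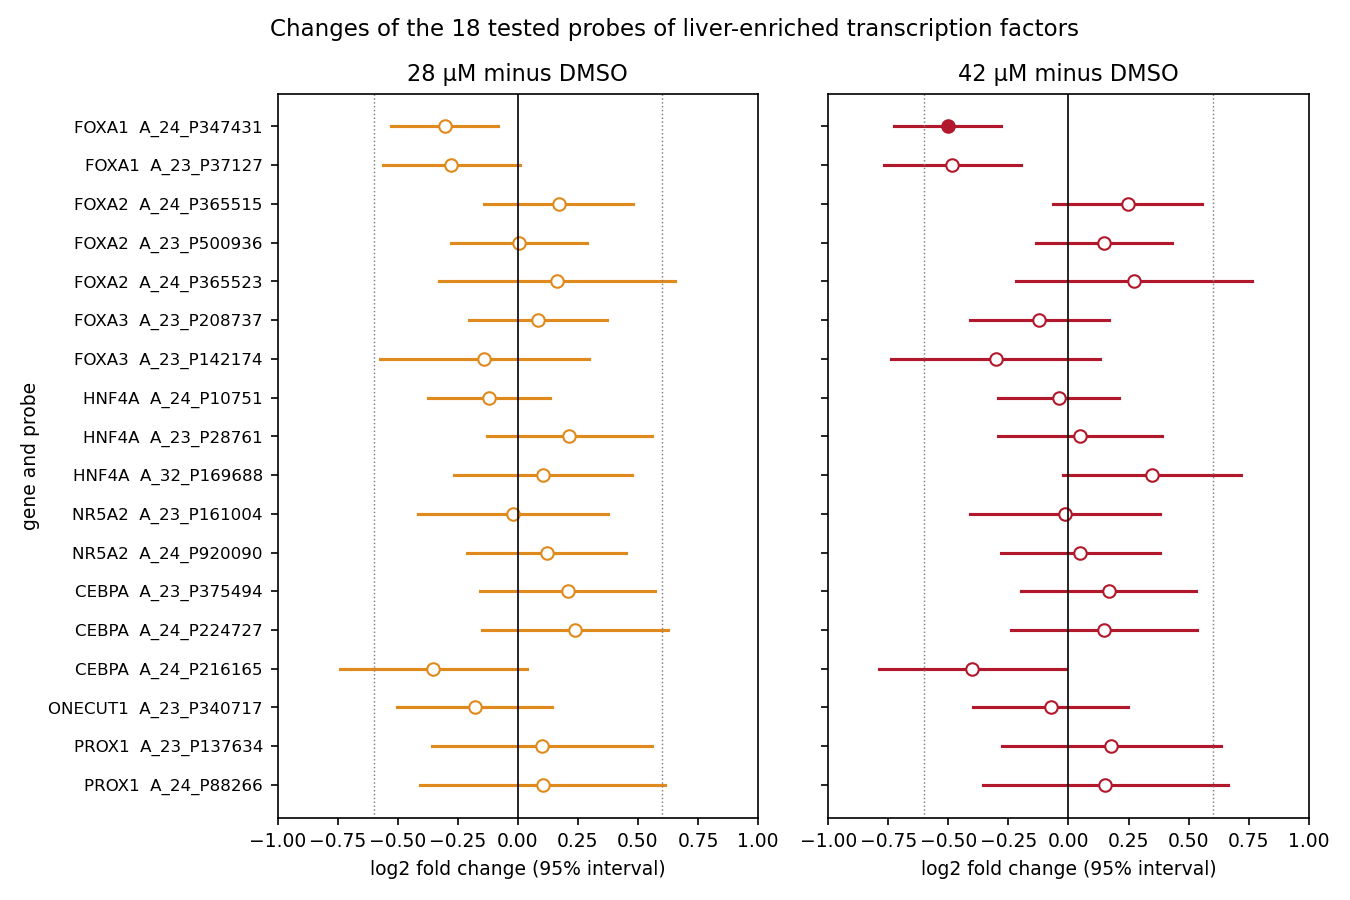
Log2 fold change against DMSO (x axis) of each of the 18 tested probes (y axis, gene and probe) at 28 µM on the left and 42 µM on the right. Circles are limma estimates over 4 arrays per group, lines are 95% intervals, the filled circle has an adjusted p below 0.05, and dotted lines stand at 0.6 on either side. The 2 FOXA1 probes lie lowest of the 18 at 42 µM, at −0.50 and −0.48.

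FOXA1 had the largest estimates of the members at 42 µM, while at 28 µM 1 probe of CEBPA had a larger one (−0.35). The brighter FOXA1 probe, A_24_P347431 (hg19 chr14:38059454-38059513, minus strand), gave 11.91, 11.98, 12.03 and 11.93 on the DMSO arrays, 11.66, 11.56, 11.55 and 11.86 at 28 µM and 11.37, 11.49, 11.47 and 11.51 at 42 µM. The groups did not overlap: every 28 µM array lay below every DMSO array, and every 42 µM array lay below every 28 µM array. All arrays of the treated group lay below all DMSO arrays for 2.68% of tested probes at 28 µM and for 6.48% at 42 µM, and all 42 µM arrays lay below all 28 µM arrays for 0.848%. At 42 µM FOXA1 stood at 70.6% of its DMSO signal, a log2 change of −0.50 (SE 0.10, n = 4 per group, adjusted p = 0.0221 from limma), which passed the adjusted p but not the fold limit. An adjusted p below 0.05 with a lower value was seen for 1.48% of all probes. At 28 µM the log2 change of this probe was −0.31 (limma adjusted p = 0.294, SE 0.10) and, without 28 µM replicate 4, −0.37 (adjusted p = 0.0851). The step from 28 to 42 µM was −0.20 (95% interval −0.42 to 0.02), which did not pass the test.

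The other FOXA1 probe lies close to it on the same strand. A_23_P37127 (hg19 chr14:38059546-38059605) was printed 10 times on each array, and its averages were 10.03, 10.34, 10.24 and 10.33 on DMSO, 9.95, 10.00, 9.72 and 10.16 at 28 µM and 9.81, 9.73, 9.50 and 9.96 at 42 µM. Its 42 µM arrays all lay below its DMSO arrays, while the 28 µM arrays overlapped both. The log2 changes were −0.28 (SE 0.13) at 28 µM and −0.48 (limma adjusted p = 0.0700, SE 0.13) at 42 µM. Across the 12 arrays the 2 probes had a Pearson correlation of 0.85.

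The slide and single arrays mattered for the adjusted p of FOXA1 more than for its size. On the 3 slides that held both a DMSO and a 42 µM array, probe A_24_P347431 differed by −0.56, −0.54 and −0.51, and A_23_P37127 by −0.52, −0.51 and −0.84. With the slide as a fixed block the change of A_24_P347431 at 42 µM was −0.52 with an adjusted p of 0.0681 from limma, and with the slide as a random block it was −0.51 with an adjusted p of 0.0110. Leaving out any one of the DMSO arrays, or 42 µM replicate 1, 2 or 3, also moved its adjusted p from limma above 0.05, to between 0.0517 and 0.0755. Over all 24 alternatives its log2 change at 42 µM stayed between −0.68 and −0.47, and the adjusted p was below 0.05 in 16. Some of these alternatives could not move the log2 change, which stayed at −0.50. They were another filter, an intensity trend, a replicate block, only the groups compared, and any lower-dose array left out. All of them are among the 16, so that count is no measure of how stable the change is. Of the fits without a DMSO or 42 µM array, only that without 42 µM replicate 4 stayed below 0.05 (limma adjusted p = 0.0369).

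**Figure D2:**
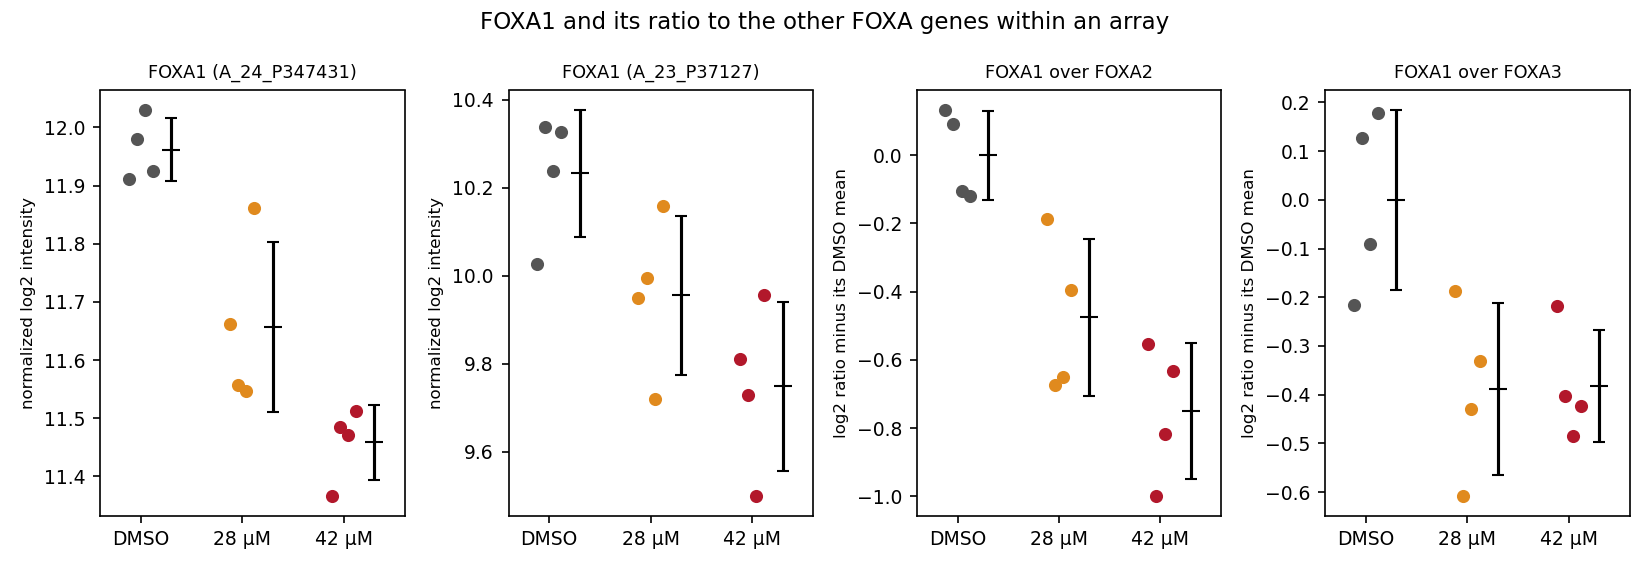
FOXA1 by array. The first 2 panels show the normalized log2 intensity of both FOXA1 probes. The last 2 show the log2 ratio of FOXA1 to FOXA2 and to FOXA3 on the same array, less the mean of the DMSO arrays. The ratios use only the brightest probe of each gene. Points are arrays (4 per group), and bars beside them are the mean ± SD. In the first panel the 42 µM arrays, at 11.37 to 11.51, lie below all others.

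FOXA2 and FOXA3, the paralogs of FOXA1 that share its forkhead domain and many of its sites, had groups that overlapped at both doses on every probe. FOXA2 probe A_24_P365515 (hg19 chr20:22562164-22562223, minus strand) gave 12.53, 12.64, 12.89 and 12.79 on DMSO, 12.60, 12.98, 12.94 and 13.00 at 28 µM and 12.67, 13.23, 13.04 and 12.89 at 42 µM. The groups overlapped, with log2 changes of 0.17 (SE 0.14) at 28 µM and 0.25 (SE 0.14) at 42 µM, and a limma adjusted p of 0.470 at 42 µM. The other FOXA2 probes gave 0.15 (A_23_P500936) and 0.27 (A_24_P365523) at 42 µM, again with overlapping groups. The arrays were not ordered alike by the FOXA2 probes, since A_24_P365515 correlated with A_24_P365523 at 0.90 across the 12 arrays but with A_23_P500936 at −0.10.

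FOXA3 probe A_23_P208737 (hg19 chr19:46376830-46376889, plus strand) ranged from 12.70 to 13.08 on DMSO, from 12.80 to 13.14 at 28 µM and from 12.53 to 12.91 at 42 µM. Its log2 changes were 0.08 (SE 0.13) and −0.12 (SE 0.13). The dimmer probe A_23_P142174 gave −0.14 (SE 0.20) and −0.30 (SE 0.20), with groups that overlapped.

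The ratio of FOXA1 to its paralogs within an array compares their changes without the array's overall level, and this comparison was chosen after the values were seen. Each gene was taken by its brightest probe, A_24_P347431 for FOXA1, A_24_P365515 for FOXA2 and A_23_P208737 for FOXA3. Relative to the mean of the DMSO arrays, the log2 ratio of FOXA1 to FOXA2 was 0.13, 0.09, −0.11 and −0.12 on DMSO, −0.19, −0.67, −0.65 and −0.39 at 28 µM and −0.55, −1.0, −0.82 and −0.63 at 42 µM. With this FOXA2 probe both treated groups lay wholly below DMSO, and the differences of the means were −0.48 at 28 µM and −0.75 at 42 µM. With FOXA2 probe A_23_P500936 or A_24_P365523 in its place the 42 µM arrays also lay below DMSO, but the 28 µM arrays overlapped it. Against FOXA3 probe A_23_P208737 the difference was −0.39 at 28 µM, where the groups overlapped, and −0.38 at 42 µM, where they barely did not. There the highest 42 µM array stood at −0.218 and the lowest DMSO array at −0.216, relative to the DMSO mean. With FOXA3 probe A_23_P142174 in its place the groups overlapped at both doses. How often other pairs of genes separate in this way was not computed. Exact permutation tests of the ratios were run as well. Because the FOXA1 values prompted the ratio, their p-values are not reported and the ratio is given as a description.

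**Figure D3:**
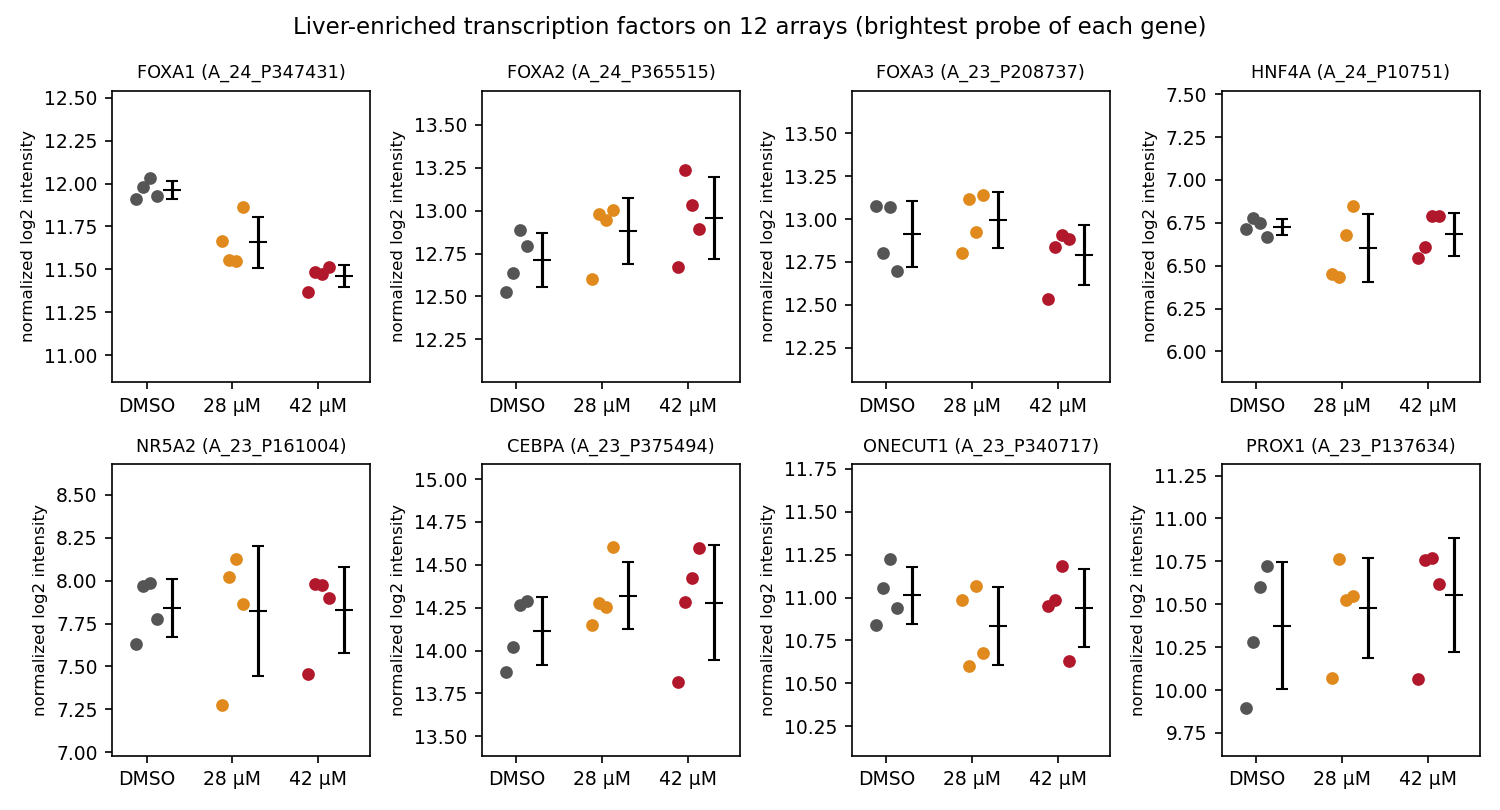
Normalized log2 intensity (y axis, every panel spans the same range of log2 units) of the brightest probe of each of the 8 factors on the DMSO, 28 µM and 42 µM arrays. Points are arrays (4 per group), and bars beside them are the mean ± SD. FOXA1 separates the groups, and the arrays of the other 7 factors overlap between groups.

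HNF4A, the nuclear receptor at the centre of the network, showed no change beyond its spread, and all 3 of its probes were dim. Probe A_24_P10751 (hg19 chr20:43058832-43058891, plus strand) gave 6.71, 6.78, 6.75 and 6.67 on DMSO, 6.45, 6.43, 6.68 and 6.85 at 28 µM and 6.55, 6.61, 6.79 and 6.79 at 42 µM. The log2 changes were −0.12 (SE 0.12) at 28 µM and −0.04 (95% interval −0.29 to 0.21) at 42 µM. Its raw signal was only 2.44 to 3.62 times the local background, so a change in the transcript could be understated. Probe A_23_P28761, whose position runs over 6278 bases of the gene and so crosses at least one intron, was above background on 11 arrays and gave 0.21 (SE 0.16) and 0.05 (SE 0.16). The third probe, A_32_P169688, was designed on a cDNA clone (hg19 chr20:42986283-42986342). It was above background on 2 of 4 DMSO arrays, 3 of 4 at 28 µM and 4 of 4 at 42 µM. At 42 µM it gave 6.51, 6.52, 6.87 and 6.24 against 5.94, 6.03, 6.48 and 6.29 on DMSO, a log2 change of 0.35 (limma adjusted p = 0.368, SE 0.17), with overlapping arrays. The 3 HNF4A probes ran unlike each other across the arrays (Pearson r from −0.14 to −0.04).

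The RefSeq promoter table (GRCh38.p14) holds 2 start sites for HNF4A, and a start each, or more, for CEBPA, FOXA1, FOXA3, ONECUT1 and NR5A2, which made 8 promoters of 6 of the 8 genes. FOXA2 and PROX1 had no entry. The 250 bases before each start were searched on both strands for short letters typical of the sites of these factors: TGTTTAC for forkhead proteins, CAAAGTCCA for HNF4A, CAAGGNCA for NR5A2, TTGCNNAA for C/EBP and ATCAAT for ONECUT. Among all 35116 promoters of the table these occurred in 2.98%, 0.325%, 4.51%, 9.05% and 5.58%. Shown are the promoters that hold a match, plus that of FOXA1, with the matches in capitals.
HNF4A, upstream start (chr20:44355449-44355698, plus strand): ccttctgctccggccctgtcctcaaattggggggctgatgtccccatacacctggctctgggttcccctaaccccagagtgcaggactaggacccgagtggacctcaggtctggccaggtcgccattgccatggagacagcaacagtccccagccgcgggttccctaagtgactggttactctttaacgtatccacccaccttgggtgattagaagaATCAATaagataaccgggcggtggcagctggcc
HNF4A, downstream start (chr20:44400989-44401238, plus strand): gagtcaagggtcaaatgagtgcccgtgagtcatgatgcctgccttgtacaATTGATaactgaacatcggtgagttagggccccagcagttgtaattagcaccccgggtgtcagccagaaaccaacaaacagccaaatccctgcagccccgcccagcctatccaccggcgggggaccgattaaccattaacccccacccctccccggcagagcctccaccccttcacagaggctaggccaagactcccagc
NR5A2, downstream start (chr1:200042341-200042590, plus strand): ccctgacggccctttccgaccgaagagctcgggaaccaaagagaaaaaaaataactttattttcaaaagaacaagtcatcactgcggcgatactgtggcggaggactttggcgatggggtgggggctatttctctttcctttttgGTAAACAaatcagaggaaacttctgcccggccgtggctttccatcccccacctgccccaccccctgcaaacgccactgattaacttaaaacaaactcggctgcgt
FOXA1 (chr14:37595250-37595499, minus strand): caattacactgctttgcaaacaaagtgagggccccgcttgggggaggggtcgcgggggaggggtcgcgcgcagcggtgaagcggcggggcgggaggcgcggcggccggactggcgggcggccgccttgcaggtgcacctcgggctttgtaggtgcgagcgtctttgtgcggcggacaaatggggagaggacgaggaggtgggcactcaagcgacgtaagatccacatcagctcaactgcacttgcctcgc
The upstream HNF4A promoter held 1 ONECUT match, beginning 33 bases before the start. The downstream one also held 1 ONECUT match. The NR5A2 promoter held a forkhead match 105 bases before its start. None of the 5 letter patterns was found in this window of FOXA1. A match describes the sequence and is not a measured binding site.

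NR5A2, a nuclear receptor of bile acid and cholesterol genes, showed no difference beyond its spread on either tested probe. Probe A_23_P161004 (hg19 chr1:200017524-200017583, plus strand) gave 7.63, 7.97, 7.99 and 7.78 on DMSO, 7.28, 8.02, 8.12 and 7.86 at 28 µM and 7.46, 7.98, 7.97 and 7.90 at 42 µM. In both treated groups 1 array, replicate 1, lay below the other arrays. The log2 changes were −0.02 (SE 0.18) at 28 µM and −0.01 (95% interval −0.41 to 0.38) at 42 µM. Probe A_24_P920090 gave 0.12 (SE 0.15) and 0.05 (SE 0.15). The third probe, A_23_P993, was not well above background on any array and was not tested.

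The 3 probes of CEBPA disagreed. The brightest, A_23_P375494 (hg19 chr19:33791148-33791207, minus strand), gave 13.88, 14.02, 14.26 and 14.29 on DMSO, 14.15, 14.28, 14.25 and 14.60 at 28 µM and 13.82, 14.28, 14.42 and 14.60 at 42 µM. Its groups overlapped, and the log2 changes were 0.21 (SE 0.17) and 0.17 (SE 0.17). The neighbouring A_24_P224727 (hg19 chr19:33791353-33791412) gave 0.24 and 0.15 and correlated with it at 0.97 across the 12 arrays. Probe A_24_P216165, further towards the 5′ end (hg19 chr19:33792884-33792943), gave 8.35, 7.88, 7.98 and 7.83 on DMSO, 7.26, 8.10, 7.42 and 7.86 at 28 µM and 7.51, 7.60, 7.52 and 7.81 at 42 µM. Here every 42 µM array lay below every DMSO array, with log2 changes of −0.35 (SE 0.18) at 28 µM and −0.40 (SE 0.18, unadjusted p = 0.0446, adjusted p = 0.306 from limma) at 42 µM. The change at 42 µM did not pass the adjusted test. Its correlation with the other CEBPA probes was −0.08 for both.

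The deviating CEBPA probe is shown because its base composition sets it apart, with runs of 6 or more G or C in capitals.
A_24_P216165: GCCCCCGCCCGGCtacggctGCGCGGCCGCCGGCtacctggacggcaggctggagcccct
It is 81.7% G and C, with a longest uninterrupted run of 14, against 43.3% and 48.3% in the other CEBPA probes. Its raw signal was 3.44 to 7.07 times the local background, against 205 to 566 times for A_23_P375494. Whether the composition of the probe has a part in its lower values at 42 µM was not tested.

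ONECUT1 probe A_23_P340717 (hg19 chr15:53049751-53049810, minus strand), the only one for this gene, gave 10.84, 11.05, 11.22 and 10.94 on DMSO, 10.98, 10.60, 11.07 and 10.68 at 28 µM and 10.95, 10.99, 11.19 and 10.63 at 42 µM. The groups overlapped. The log2 changes were −0.18 (SE 0.15) at 28 µM and −0.07 (95% interval −0.40 to 0.25) at 42 µM.

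PROX1 varied more among replicates than between groups. Probe A_23_P137634 (hg19 chr1:214209219-214209278, plus strand) gave 9.90, 10.28, 10.60 and 10.72 on DMSO, 10.07, 10.76, 10.52 and 10.55 at 28 µM and 10.06, 10.76, 10.77 and 10.62 at 42 µM. The lowest DMSO array lay below both treated groups, and the log2 changes were 0.10 (SE 0.21) and 0.18 (SE 0.21). Probe A_24_P88266 gave 0.10 (SE 0.24) and 0.15 (SE 0.24) and correlated with the first at 0.92 across arrays. On the slides shared with DMSO the difference of A_23_P137634 at 42 µM was −0.66, 0.16 and 0.49, so its direction changed between slides.

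None of the 18 member probes had all 42 µM arrays above all DMSO arrays, beside 5.82% of all probes, and 3 had them all below, beside 6.48%.

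Of 32 other liver-enriched factors listed, 31 were tested, and at 42 µM limma called 2 higher and 1 lower. Among all genes, each by its brightest probe, 1.57% were called higher and 1.42% lower. NR0B2 encodes SHP, a receptor without a DNA-binding domain that represses NR5A2 and HNF4A and is itself a target of NR5A2. It gave 10.28, 9.93, 9.86 and 10.29 on DMSO, 11.21, 11.35, 11.52 and 10.63 at 28 µM and 11.41, 11.60, 11.26 and 11.32 at 42 µM. The DMSO arrays all lay below the treated ones, and the log2 change was 1.31 at 42 µM (limma adjusted p = 0.0112, SE 0.18) and 1.09 at 28 µM (limma adjusted p = 0.116, SE 0.18). CEBPB, a C/EBP family member that can pair with C/EBPα and is induced by stress and inflammation, rose by 1.45 at 42 µM (limma adjusted p = 0.0303, SE 0.32). ATF5, a leucine zipper factor abundant in liver, had a log2 change of −0.70 (limma adjusted p = 0.0402, SE 0.17). NR2F2, an orphan receptor that binds HNF4A sites, was called lower by its dimmer probe (−0.69, limma adjusted p = 0.0429) and not by its brighter one (−0.47, adjusted p = 0.410), and it was named after its values were seen. The list's median was 0.05 at 28 µM and 0.03 at 42 µM.

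The list of C/EBP partners and regulators was drawn up with earlier results of these data known, so its counts are a description. Its median was 0.54 at 28 µM and 0.37 at 42 µM. Its 9 genes held 3 called higher at 42 µM and none lower, beside 1.57% of all genes called higher and 1.42% lower. Besides CEBPB these were DDIT3, which encodes CHOP, a C/EBP relative that forms dimers with poor binding to classical C/EBP sites, and TRIB3, a pseudokinase of the family whose other members direct C/EBPα to degradation. DDIT3 stood at 7.95 ± 0.18 (SD, n = 4) on DMSO and at 10.15 ± 0.73 at 42 µM, a log2 rise of 2.19 (limma adjusted p = 0.0167, SE 0.41), and TRIB3 from 13.24 ± 0.07 to 15.43 ± 0.46, also by 2.19 (limma adjusted p = 0.0160, SE 0.40). On 28 µM replicate 4 they stood at 8.05 and 13.18, near DMSO, while the other 28 µM arrays lay at 9.85 or above and at 15.07 or above. TRIB1, of the same family, was at 0.37 (limma adjusted p = 0.204, SE 0.14). The list median of 0.54 at 28 µM is the value of CEBPE. Its probe was above background on only 1 of 4 DMSO arrays and on 2 of 4 at each dose. Of 12 coregulators of these factors, 0 were higher and 1 lower: CITED2, a transactivator that binds CBP and p300, fell by 0.88 (log2 change −0.88, SE 0.20, adjusted p = 0.0305 from limma).

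Targets were listed for HNF4A, the FOXA factors, C/EBPα and NR5A2, and most were not called. Some of the tested targets lay near background. On the 4 DMSO arrays CYP3A4 and CETP were above it on 0 and OTC on 1. For such genes a missing call does not show that they were unchanged. Of 31 tested HNF4A targets, 1 was called higher at 42 µM and 0 lower, with a median of 0.03. It was F7, coagulation factor VII, with a log2 change of 0.78 (limma adjusted p = 0.0307, SE 0.17). ALB, the albumin gene, was at −0.06 (SE 0.12). Of 10 FOXA targets, 0 were called in either direction, and the median was 0.03. The largest value among them was IGFBP1, a secreted binder of insulin-like growth factors, at 1.48 (limma adjusted p = 0.178, SE 0.54), whose arrays overlapped with DMSO. AFP, the fetal counterpart of albumin, was at 0.37 (limma adjusted p = 0.540, SE 0.24) and APOB, the main protein of VLDL, at 0.59 (limma adjusted p = 0.580, SE 0.42).

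Of 12 C/EBPα targets, CEBPA itself among them, 2 were called lower and 0 higher. HP, the acute phase protein haptoglobin, gave 9.45, 10.18, 9.78 and 10.16 on DMSO, 8.41, 7.86, 8.05 and 10.04 at 28 µM and 7.63, 7.72, 7.75 and 8.15 at 42 µM. All 42 µM arrays and 3 of the 4 28 µM arrays lay below DMSO, with log2 changes of −1.30 (limma adjusted p = 0.231, SE 0.37) and −2.08 (limma adjusted p = 0.0157, SE 0.37). ARG1, the urea cycle enzyme arginase, had log2 changes of −0.94 (SE 0.33) and −1.84 (limma adjusted p = 0.0157 at 42 µM, SE 0.33). Of 9 NR5A2 targets, 2 were called higher: NR0B2 and SULT2A1, the sulfotransferase of bile acids and steroids, with a log2 change of 1.08 (limma adjusted p = 0.0187, SE 0.21). No gene of these lists was called at 28 µM with all arrays. Without 28 µM replicate 4, limma called NR0B2, CEBPB, DDIT3, TRIB3, CITED2, F7, HP, ARG1 and SULT2A1 there, and the hepatocyte keratin KRT8 at −0.63. With the slide as a fixed block, or without DMSO replicate 2 or 42 µM replicate 2, none of these list genes passed at 42 µM, ATF5 included, whereas with the slide as a random block all 10 passed. NR0B2, HP and ARG1 stayed called at 42 µM without each of the other 10 arrays, whereas CEBPB, ATF5, CITED2, F7, SULT2A1, DDIT3 and TRIB3 each lost the call without at least 1 of them, with limma adjusted p up to 0.117. With the processed signal scaled to the 75th percentile, CEBPB, ATF5 and F7 were not called (limma adjusted p = 0.0929, 0.0696 and 0.0657). ATF5 was also not called with the scaled Edwards values (limma adjusted p = 0.0572) or with array weights (log2 change −0.595).

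For each of HNF4A and FOXA1, the 3 non-member genes whose log2 intensity ran most alike over the 12 arrays were listed, as a description. For HNF4A probe A_24_P10751 they were RNASE1 (Pearson r = 0.96), the unnamed probe A_32_P201785 (r = 0.95) and CIRBP-AS1 (r = 0.93). For FOXA1 probe A_24_P347431 they were CENPE, a kinesin of the mitotic spindle (r = 0.97), LMNB1, lamin B1 (r = 0.96), and RHBG, an ammonium transporter (r = 0.96). The log2 changes of these 3 at 42 µM were −1.82, −1.17 and −0.48. The 12 arrays include the groups, so genes that differ between the groups are alike by that alone.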

How the data were processed

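RNA of 12 HuH-7 cultures was measured on 1-colour Agilent arrays on 5 slides. The authors deposited Feature Extraction output (version 10.7.3.1 in the submitters' processing notes, another in the file headers) with a mean and a background intensity per spot, and normalized log2 values (Edwards background correction, quantile normalization, limma, per the methods), used here as an alternative. Probe positions in the scanner files are hg19.

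Starting from the intensities, outlier spots were removed, both steps were repeated with limma 3.58.1 (R 4.3.3, data.table version 1.17.8) and spots of a probe averaged. In all, 7523 probes that failed the scanner's background flag on 3 or 4 of the 4 arrays of each group were left out, which kept 33477. These values correlated with the authors' at 0.999 or more on each array. Array number, and signal over background, limit the precision.

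limma was fitted to 3 groups over 12 arrays, two-sided, with Benjamini-Hochberg adjustment over all tested probes. The lists, chosen from general knowledge, use the brightest probe of a gene. Every member probe is named, and in each list the called genes, or otherwise the 3 largest at 42 µM, with some background genes added; 1 listed gene is not reported here. The members and lists were chosen with earlier results of these data known. The procedure was tested on simulated data, with shifts larger than any member change and noise independent between arrays. That test gives no measure of power for changes as small as those of the members, or with a slide effect.

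Alternatives were normexp with an offset of 50, scaling to the 75th percentile of the processed or Edwards signal, the authors' values, no filter or a strict filter (28416 probes), slide or replicate number as a block, a model of only the groups compared, slide as a random block, an intensity trend, array weights, another log2 limit, and each array left out. Whether the numbers of replicates pair the arrays was not settled, and the main model did not use them. Plots used Python 3.11.15 and matplotlib 3.10.9. The other experiments of the study were not analysed here.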

Additional observations from a re-analysis of the deposited data

Results flagged for a closer look

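Of 57 groups of 4 values (19 member probes in 3 groups), 4 held an array that lay far from the other 3 by Dixon's test at the 95% level, which flags about 1 group in 20 by chance. For FOXA2 A_24_P365515, 28 µM replicate 1 stood at 12.60, with the nearest at 12.94. For PROX1 A_24_P88266, 28 µM replicate 1 stood at 8.38, with the nearest at 9.21, and 42 µM replicate 1 at 8.52, with the nearest at 9.22. For NR5A2 A_23_P161004, 42 µM replicate 1 stood at 7.46, with the nearest at 7.90. Both arrays lay on slide 2, which also held DMSO replicate 4, at 9.26 for PROX1 A_24_P88266.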

How the results depend on the processing

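The count of member probes called was 0 at 28 µM and between the doses under every alternative. Between the doses no probe at all was called under any of them. At 28 µM probes were called only without 28 µM replicate 4 (718) and with a replicate block (2). Elsewhere the 0 was fixed and says nothing of the members. At 42 µM the count was 0 with any array left out, although without DMSO replicate 2 or 42 µM replicate 2 no probe at all was called there. It was 1 at 42 µM, the FOXA1 probe A_24_P347431, with a 75th percentile scaling of the Edwards values (log2 fold change −0.64) or of the processed signal (−0.68) and without a log2 limit (−0.50). Whether replicate numbers pair the arrays was not settled. Same-numbered arrays had correlations of deviations from −0.46 to 0.62, with 7 of the 12 pairs over 0.1. Of the 12 arrays, 5 correlated best with their own number. Each replicate number occurs once in every group, so a replicate block cannot move the FOXA1 change of −0.50 at 42 µM. With this block the adjusted p of FOXA1 probe A_24_P347431 was 0.0228 from limma. Then 0 member probes were called, and 1366 instead of 885 probes were called at 42 µM. With the slide as a fixed block 1 probe was called there. Of 1296 member values compared, 5 turned in sign by over 1 replicate SD, none of them called. At 28 µM FOXA1 A_23_P37127 gave 0.10 with the authors' values. FOXA2 A_23_P500936 gave −0.19 with the processed signal at 28 µM and −0.043 with the scaled Edwards values at 42 µM, and FOXA3 A_23_P208737 gave −0.10 and −0.11 at 28 µM under these 2 scalings. The cause was not tested. The log2 ratio of FOXA1 to FOXA2 at 42 µM, by the brightest probe of each gene, stayed between −0.82 and −0.67 over 12 alternatives chosen after seeing the data. The HNF4A probes, at 2 to 4 times local background, limit what could be seen of that gene.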
